A study of Drosophila melanogaster with 6 samples.

Results

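The Bomanin genes (symbols starting with Bom) and Drosomycin (Drs) encode small secreted peptides of the fly's immune response. They were collected by name: every probe set paired, through its gene number, with Drs or with a gene whose current symbol starts with Bom. RefSeq lists 13 such genes, and 9 of them, 8 Bom genes and Drs, had a probe set among the 11982 genes that had one. BomS1, BomS3, BomBc1 and BomT1 were not the only gene of any probe set in the annotation used here and were not analysed. The 402 probe sets paired with several genes were not searched for them. The set was drawn up with the difference of several members between the genotypes already known. The genotype difference of every member is therefore given as a description, without a test.

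The 6 arrays measured total RNA from ovaries of Drosophila melanogaster, 3 from bam[delta86] mutants and 3 from stwl bam double mutants, grown on cornmeal molasses with dry yeast and given no treatment. Both groups are labelled as bam mutants, and neither as wild type. The sources used here name neither the alleles of the double mutant nor the age of the females nor the number of animals behind an array. Whole ovaries hold somatic cells beside the germ cells, and in such bulk samples fewer cells of a type and less RNA per cell cannot be told apart. The labels do not say whether replicates are separate crosses or dissections, so the p-values rest on a spread between samples that may be technical.

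Bomanins and Drosomycin are best known as targets of the Toll pathway. Fungi and Gram-positive bacteria start a cascade of serine proteases in the blood of the fly, which cuts the ligand Spätzle. Spätzle binds the receptor Toll, the inhibitor Cactus is degraded, and the NF-kappaB factors Dif and Dorsal enter the nucleus. The fat body is the main source of these peptides after infection, and Drosomycin is also made without infection in some epithelia, among them the spermatheca. The Bomanins fall into short (BomS), tailed (BomT) and bicipital (BomBc) forms. A short one is little more than the shared Bomanin motif, a tailed one adds a C-terminal tail and a bicipital one carries a pair of motifs joined by a linker. Drosomycin is an antifungal peptide held together by disulfide bridges.

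Transcript levels of the targeted genes gave no check of the genotype labels. The stwl probe set had intensities of 76.1, 84.1 and 65.4 in bam and 74.8, 86.5 and 52.3 in stwl bam, and its difference of -0.31 ± 0.24 (SE, log2) did not pass (limma adjusted p = 0.396). The bam probe set lay above background on all 6 arrays, with 87.5, 103 and 99.0 in bam and 384, 175 and 287 in stwl bam, and rose by 1.29 ± 0.26 (SE; limma adjusted p = 0.00935). Whether either probe set lies in a mutated stretch is not known here.

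The arrays had median intensities between 26.1 and 39.8. The 95th percentile of control probe sets that match no fly sequence, taken as background, lay between 13.5 and 38.8. It was lowest on stwl bam replicate 1 (13.5) and ran from 22.35 to 38.8 on the other arrays. On stwl bam replicate 1, 64.5% of probe sets lay above background, against 50.8% to 56.7% on the other arrays. The ratio of 5' to 3' signal, a measure of how complete the labelled RNA was, differed with genotype. For the actin control it ran from 0.129 to 0.183 on the bam arrays and from 0.524 to 0.675 on the stwl bam arrays, and its part in the differences below was not tested. All 9 genes of a germ cell list (vas, nanos, aub, piwi, AGO3, Sxl, ovo, otu and bam) lay above background on all 6 arrays. The list holds bam, which is mutated in both groups, and whether the other genes are confined to germ cells was not tested. Of the 9 genes 2 rose, bam and piwi (0.40), and 2 fell, ovo by 0.84 and otu by 0.67. By limma 11.1% of all 8764 tested genes rose and 13.0% fell. The summed normalized intensity of the list ran from 10688 to 11591 in bam and from 10171 to 11309 in stwl bam. Without single arrays 1 to 2 rose and 1 to 2 fell, and another Sxl probe set was at 1.02 (limma adjusted p = 0.00819) against -0.23 for the one used.

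The genes lie in 3 places of the genome, by the order of genes in RefSeq Release 6. On chromosome arm 2R, 10 Bom genes follow each other with no other protein-coding gene between them, in the order BomT1, BomBc1, BomS1, BomS4, BomBc2, BomS2, BomS3, BomT2, BomS5 and BomS6. The 6 of these with a probe set are called clustered here. BomT3 and BomBc3 are neighbours on arm 3R, and Drs lies on arm 3L.

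All 9 measured members were higher in stwl bam ovaries, and in each of them the 3 stwl bam arrays all lay above the 3 bam arrays. The same held for 19.6% of all 8764 genes tested, and 23.1% lay wholly below. Since the set was chosen on this contrast, nothing is read from that comparison. The differences (stwl bam minus bam, in log2 units of normalized intensity plus an offset of 7.9) ran from 1.13 for BomT3 to 3.69 for BomBc2 among the 8 members with a bam array above background. BomBc3, below background on all bam arrays, has only a lower bound. The median over the 9 measured values was 2.80. Over all tested genes the median difference was -0.04. Of the 9 members, 8 were higher by at least 1 log2 unit, as 4.10% of all tested genes were.

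**Figure D1:**
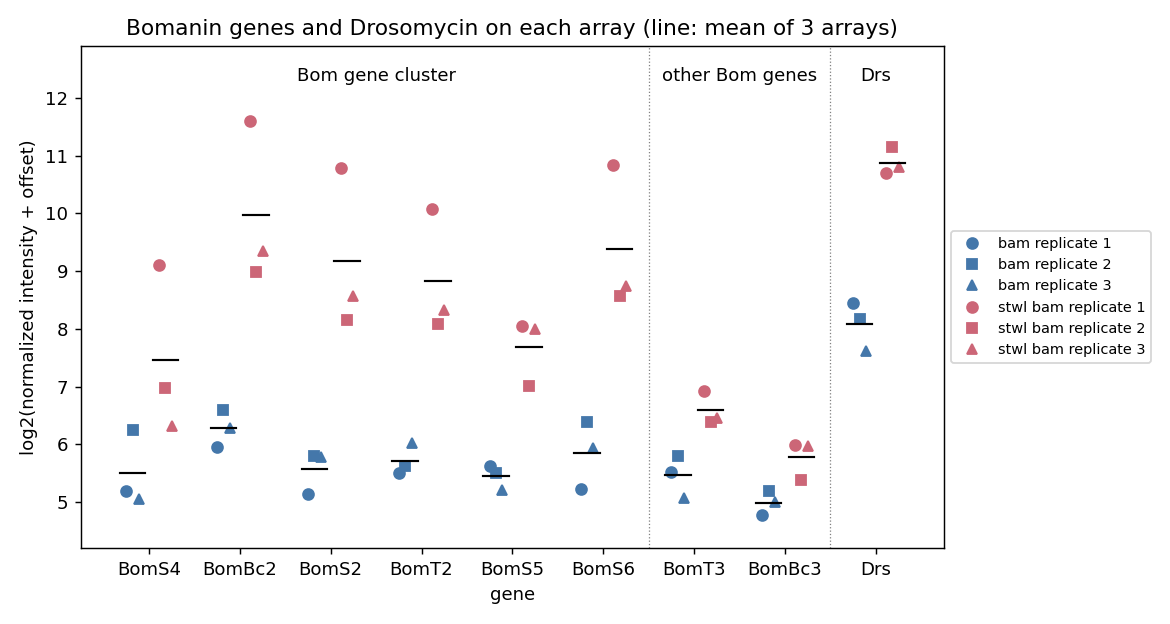
Level of the 9 measured members on each array, as log2 of normalized intensity plus the offset, with blue for bam, red for stwl bam, a symbol for each replicate number and a line for the mean of 3 arrays. In 5 of the clustered genes (BomS4, BomBc2, BomS2, BomT2 and BomS6) stwl bam replicate 1 stands above the other stwl bam arrays, and in Drs it does not.

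BomBc2, the clustered bicipital gene, showed the largest measured difference of the set. Its deposited intensity was 45.0, 93.8 and 61.8 on bam replicates 1, 2 and 3 and 3198.5, 499 and 644 on stwl bam replicates 1, 2 and 3. The lowest stwl bam array stood well above the highest bam array, by 5.57-fold after normalization, and stwl bam replicate 1 was 4.81 times the next stwl bam array. Mean log2 levels were 6.28 ± 0.32 for bam and 9.97 ± 1.42 for stwl bam (SD, n = 3 each), which differ by 3.69 ± 0.58 (SE).

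Among the short forms, BomS2 and BomS6 behaved alike. BomS2 had intensities of 23.0, 54.0 and 37.8 in bam and 1820, 282 and 373 in stwl bam. BomS6, the last gene of the cluster, had 24.7, 80.5 and 44.4 in bam and 1883, 378 and 417 in stwl bam. In both, stwl bam replicate 1 was far above its companions. The log2 differences were 3.61 ± 0.59 (SE) for BomS2 and 3.53 ± 0.56 for BomS6. By size of rise BomBc2, BomS2 and BomS6 stood at places 4, 5 and 6 among the 8764 tested genes.

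The other short forms, BomS4 and BomS5, had smaller measured differences. BomS4 had 23.9, 73.0 and 19.3 in bam and 547, 123 and 78.3 in stwl bam, with replicate 1 again far above the others. Its groups barely separated, since the lowest stwl bam array was 1.05 times the highest bam array after normalization, and 1 bam array lay below background. BomS5 had 34.4, 43.8 and 22.5 in bam, with 1 array below background, and 262, 125 and 250 in stwl bam. In BomS5, unlike BomS4, stwl bam replicates 1 and 3 were nearly equal and replicate 2 was lower. The log2 difference was 1.97 ± 0.65 (SE) for BomS4 and 2.24 ± 0.29 for BomS5.

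BomT2, the clustered tailed gene, followed the pattern of BomBc2. Its intensities were 31.5, 47.6 and 48.0 in bam and 1095, 267 and 313 in stwl bam. The difference was 3.11 ± 0.46 (SE), with the highest of the stwl bam arrays 3.41 times the next.

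The 2 measured Bom genes outside the cluster were dim in bam. BomT3, a tailed form, had intensities of 32, 54.1 and 19.4 in bam, with 1 array below background, and 124, 80.4 and 86.7 in stwl bam, a log2 difference of 1.13 ± 0.27 (SE). BomBc3, a bicipital form, had 16.5, 34.2 and 18.4 in bam and 56.9, 38.9 and 61.3 in stwl bam. All 3 bam arrays of BomBc3 lay below background, so the rise in stwl bam is given as at least 1.59-fold higher. The clustered genes ranged from 1.97 to 3.69 with a median of 3.32, and whether they differ in this from BomT3 was not tested.

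Drs had the smallest SD of the set among the stwl bam arrays. Its intensities were 309, 288 and 188 in bam and 1696, 2276 and 1826 in stwl bam. All arrays lay above background, and the highest stwl bam array was 1.27 times the next. Mean log2 levels were 8.08 ± 0.43 for bam and 10.88 ± 0.24 for stwl bam (SD, n = 3 each), which differ by 2.80 ± 0.21 (SE). In contrast to every measured Bom gene, its lowest stwl bam array was replicate 1.

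The size of the Bom differences depended on that 1 array. Without stwl bam replicate 1 BomBc2 was at 2.89, BomS6 at 2.80, BomS2 at 2.78, BomT2 at 2.47, BomS5 at 2.02 and BomS4 at 1.11 log2 units. Outside the cluster BomT3 was then at 0.92. Drs was at 2.89 without it.

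**Figure D2:**
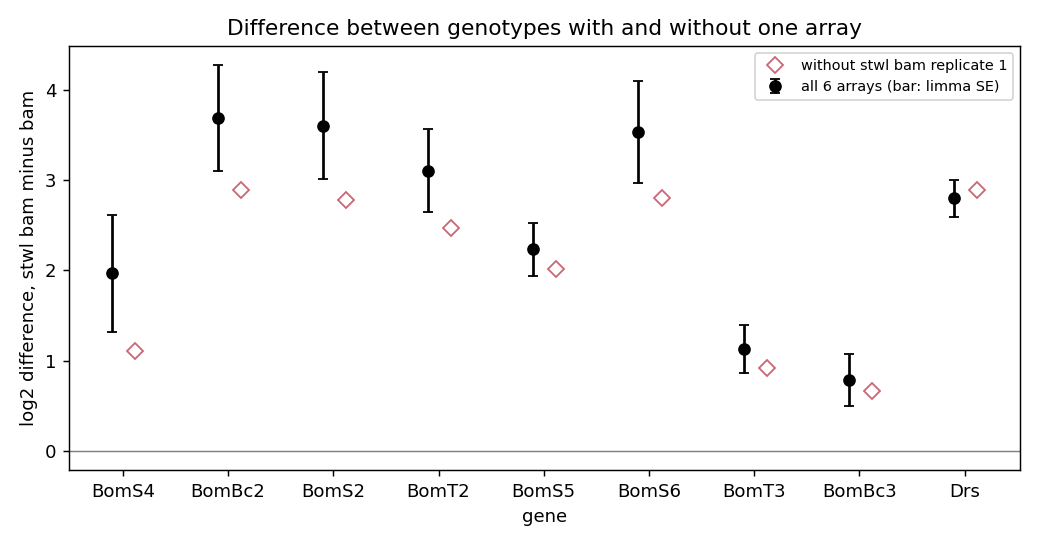
Log2 difference between stwl bam and bam for each measured member, from all 6 arrays (black points, bars are the limma standard error) and without stwl bam replicate 1 (open diamonds). The clustered genes move down without that array, BomS4 from 1.97 to 1.11, while Drs goes from 2.80 to 2.89. The point of BomBc3 is its measured value, with all bam arrays below background. Its rise is given in the text as at least 1.59-fold.

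The arrays thus ordered the Bom genes and Drs differently within stwl bam. In all 8 measured Bom genes stwl bam replicate 1 had the highest normalized level, which was the case for 33.3% of all tested genes. For BomBc3 this was 55.3 against 54.9 on replicate 3, where its deposited intensity was the higher (61.3 against 56.9). In 5 of the 8 stwl bam replicate 1 was above the mean of the other stwl bam arrays by 1.87 to 2.45 log2 units. A lead of at least 1 unit was found in 3.66% of all tested genes. On stwl bam replicate 1 Drs lay 0.28 units below the mean of the other stwl bam arrays. Pearson's r over the 6 arrays ran from 0.76 to 0.999 among the 15 pairs of clustered Bom genes and from 0.70 to 0.92 between these genes and Drs. After the genotype means were subtracted, r ran from 0.33 to 0.99 among the clustered genes and from -0.57 to -0.13 between them and Drs. These correlations describe 6 arrays, in which the genotype difference is shared. Probe sequences were not used here, so signal that close Bom paralogues may lend each other cannot be told apart.

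The genes with the pattern most like the mean of the measured Bom genes were sought among 250 other tested genes whose log2 levels had an SD of at least 1. By Pearson's r over the 6 arrays these were CG9691 (r = 0.996), CG34166, CG6503, CG1468, CG10799, Obp99c, verm and CG14566 (r = 0.982). The candidates share the genotype difference to a varying degree: their median r was 0.76, and 71 of them (28.4%) were over 0.9. CG9691 had intensities of 46.7, 99.2 and 55.2 in bam and 1066, 239 and 316 in stwl bam, again with stwl bam replicate 1 highest. Obp99c, an odorant-binding protein gene expressed in fat body, had 24.3, 112 and 76.0 in bam and 2209, 430 and 635 in stwl bam. verm encodes a chitin deacetylase. By deviations from the genotype means the nearest were CG9691, Tps1, CG6503, P5CS and MtnD. Tps1 makes the blood sugar trehalose, P5CS acts in proline synthesis and MtnD is a metallothionein. Drs had an r of 0.86 over the 6 arrays and of -0.40 for the deviations.

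The nearest tested genes on either side of the members were also examined, a choice made after the data were seen. Beside BomS6, the next protein-coding gene is Idgf5, which encodes a chitinase-like growth factor. Idgf5 had intensities of 13.6, 7.30 and 12.8 in bam, all below background, and 87.3, 37.3 and 63.6 in stwl bam. Its level in stwl bam was at least 1.79-fold higher (limma adjusted p = 0.0215). That call ended without bam replicate 1, bam replicate 2, stwl bam replicate 1 or stwl bam replicate 3, and when values below background were set to it. GstE10 beyond it, and CG18540 and CG18537 on the other side, did not pass, with log2 differences of 0.83, -1.03 and 0.28. Next to Drs the spectrin gene kst fell by 1.41 ± 0.15 (SE; limma adjusted p = 0.00072), from 9.25 ± 0.20 to 7.84 ± 0.22 (SD, n = 3), and Ythdc1 on its other side, an RNA methylation reader gene, fell by 0.46 ± 0.13. Farther out CG14969 fell by 0.47, a call lost when bam replicate 1 or 2, or replicate 3 of stwl bam, was left out, and CG12010 was at -0.09. The call of Ythdc1 ended without any single array except stwl bam replicate 1. Around BomT3 and BomBc3 no tested gene rose: pit was at 0.00 and Fadd at -0.00, CG42390 at -0.59 and SKIP at -0.62, another probe set of SKIP being at 0.41.

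The Toll pathway itself was compared next, with limma across all kept probe sets. Of its 29 listed genes 24 had a probe set and 19 were tested. Of these 1 rose, 3 fell and 15 did not pass. Over all genes tested 11.1% rose and 13.0% fell. The median difference was -0.07, against -0.04 over all tested genes.

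Among the proteases upstream of Spätzle, psh, which encodes a protease that senses danger signals and microbial proteases, was the gene that rose. Its intensities were 25.1, 33.7 and 24.7 in bam, with 1 array below background, and 70.2, 65.4 and 73.9 in stwl bam. The log2 difference was 0.94 ± 0.22 (SE), with a limma adjusted p of 0.0169. The call ended without bam replicate 1 or stwl bam replicate 3, at an adjusted p of at most 0.0594 over all alternatives. The proteases grass and Hayan and the serpin gene nec did not pass, with differences of 0.22, -0.40 and -0.25. SPE, the enzyme that cuts Spätzle, and the fungal sensor gene GNBP3 lay below the filter, as did spirit, sphe and sphinx1. SPE had 1.10, 6.80 and 18.5 in bam and 129, 10.5 and 2.70 in stwl bam. GNBP3 had 3.10, 2.90 and 11.8 in bam and 51.2, 8.80 and 11.7 in stwl bam. Both lay above background only on stwl bam replicate 1, whereas spirit did so only on stwl bam replicate 3 and sphe and sphinx1 on no array.

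The ligand gene spz was at 0.28 ± 0.18 (SE) and did not pass, although its stwl bam arrays all lay above the bam arrays (limma adjusted p = 0.306). Tl, the receptor gene, had intensities of 587, 605 and 640 in bam and 350, 329 and 289 in stwl bam. It fell by 0.94 ± 0.11 (SE), with a limma adjusted p of 0.000844. Another Tl probe set, dimmer on average, was at 0.76 and did not pass, so the probe sets disagreed in direction.

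Inside the cell, cact, which encodes the inhibitor Cactus, fell by 0.46 ± 0.10 (SE; limma adjusted p = 0.0127), with 1190, 1272 and 1388 in bam and 1115, 875 and 902 in stwl bam. Its other probe set was at 0.36, and the call ended without bam replicate 1 or stwl bam replicate 3. Gprk2, a kinase gene that modulates Toll signalling, fell by 0.60 ± 0.09 (SE; limma adjusted p = 0.00378), with 581, 605 and 681 in bam and 436, 408 and 397 in stwl bam. Neither NF-kappaB gene passed with its brighter probe set: dl was at 0.63 ± 0.24 (SE) and Dif at -0.22 ± 0.24. Another dl probe set was at -1.18 with a limma adjusted p of 0.00542. The adaptor and kinase genes Myd88, tub and pll lay between -0.14 and 0.06.

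**Figure D3:**
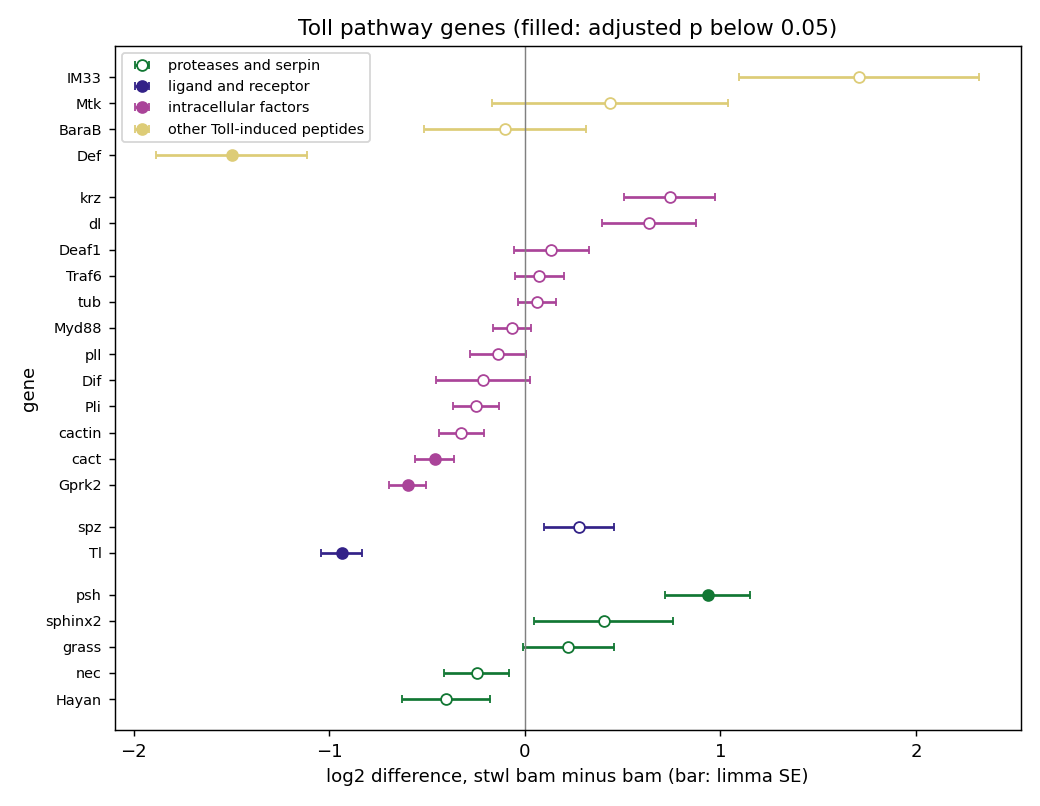
Log2 difference between stwl bam and bam for the tested Toll pathway genes and 4 other Toll-induced peptide genes, by role, with bars for the limma standard error and filled points for an adjusted p below 0.05. psh lies to the right of 0 and Tl, Gprk2, cact and Def to the left among the filled points.

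Other peptide genes known as Toll targets were compared in the same fit, in which 11.1% of all tested genes rose and 13.0% fell. Of 10 listed, 4 had a probe set, and all 4 were tested: 0 rose, 1 fell and 3 did not pass. At an unadjusted p under 0.05 IM33 was higher, and the test without pooling called 0 in either direction. Def, the defensin gene, had intensities of 123, 371 and 291 in bam and 49.2, 88.5 and 135 in stwl bam. It fell by 1.5 ± 0.39 (SE; limma adjusted p = 0.0252), a call that ended without bam replicate 2 or bam replicate 3. Mtk, which encodes the antifungal peptide Metchnikowin, was at 0.44 ± 0.60 (SE) with overlapping arrays. IM33, an immune-induced peptide gene, had 169, 361 and 190 in bam and 2516, 337 and 592 in stwl bam, the order seen in the clustered Bom genes. Its groups overlapped, and its difference of 1.71 ± 0.61 (SE) did not pass (limma adjusted p = 0.0778), though it did without stwl bam replicate 2. BaraB was at -0.10.

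Of the Drosomycin-like genes, the paralogues of Drs, all 6 had a probe set, and 2 passed the filter. Drsl4 was at 0.21 ± 0.29 (SE) and Drsl5 at 0.04 ± 0.23, both with overlapping arrays, and neither passed. Drsl2, Drsl3 and Drsl6 lay below background on all 6 arrays. A list of 13 Imd-type genes held peptide genes and PGRP-SB1, a peptidoglycan recognition protein gene. Of the 13 genes 5 had a probe set and 2 were tested, without a call. PGRP-SB1 had 85.5, 118 and 67.2 in bam and 235, 124 and 184 in stwl bam. Its difference of 0.78 ± 0.25 (SE) did not pass (limma adjusted p = 0.0566), though its arrays did not overlap and it passed under 5 of 19 alternatives. CecB, the only peptide gene of the list that was tested, was at -0.06 with overlapping arrays. DptB, a diptericin gene, had 12.6, 3.90 and 3.60 in bam, below background, and 6.60, 51.6 and 182 in stwl bam, where replicate 1 was the lowest array.

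Markers of other cell types were measured beside these values, since fat body is a known source of the peptides. Of 20 fat body genes 15 had a probe set and were tested: 3 rose, 2 fell and 10 did not pass. Over all tested genes 11.1% rose and 13.0% fell. The calls of NLaz and bmm, the fat body genes that fell, were lost without any 1 bam array or without stwl bam replicate 3. Tsf1, an iron transport protein gene, rose by 3.21 ± 0.35 (SE), Obp99c by 3.51 ± 0.60 and the lipoprotein gene apolpp by 1.47 ± 0.23. The larval storage protein gene Lsp2 and the fat body genes Fbp1 and Fbp2 were above background on all bam arrays and did not pass, at -0.52, -0.56 and -0.35. The summed normalized intensity of the list was 4344 to 5515 in bam, and 10605, 5232 and 7902 on stwl bam replicates 1, 2 and 3, again highest on the first. Tsf1 gave 2716, 1104 and 3003 of these stwl bam sums, and Obp99c 2139, 427 and 634. In bam Tsf1 had 174 to 273 and Obp99c 28.9 to 110. Such sums weigh bright genes most and do not give the course of every gene listed: fit was lowest on stwl bam replicate 1. The medians of tested fat body, muscle and haemocyte genes were -0.35, 0.41 and -0.63.

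Of 12 tested muscle genes 6 rose and 1 fell, beside 11.1% and 13.0% of all tested genes. The count that rose was 3 when bam replicate 1 or 2, or replicate 3 of stwl bam, was left out, and Mf, among the 6, was at -0.30 with another probe set. Act88F, the flight muscle actin gene, was higher by 4.14 ± 0.59 (SE) with 2 bam arrays below background, and up, the troponin T gene, rose by 3.23 ± 0.13. The summed level of the muscle list was 17290 to 18558 in bam and 30363, 22859 and 27031 on the stwl bam arrays. Of 13 tested haemocyte genes 7 fell and 0 rose, with crq, a scavenger receptor gene, down by 1.04 ± 0.13 (SE). All 13 tested differences were negative, so no unadjusted test gave a higher level either. Their summed level ran from 15104 to 16545 in bam and from 9388 to 12991 in stwl bam. Pxn, Col4a1 and vkg gave 3905, 3843 and 4151 of the 16545 on bam replicate 1. Whether the genes of the fat body, muscle and haemocyte lists are confined to those cells was not tested. The spermatheca genes Send1 and Send2 were below background on all bam arrays and on 2 of the 3 stwl bam arrays. The exception was stwl bam replicate 1, with 139 for Send1 and 19.1 for Send2 at a background of 13.5. On stwl bam replicate 3 Send2 had a higher intensity, 26.1, at a background of 28.5. Of the other spermatheca genes listed, lz lay below background on all 6 arrays. Hr39 and SPR did not pass, at -0.43 and -0.38. The part of any of these tissues in the difference of the Bom genes and Drs was not tested.

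**Figure D4:**
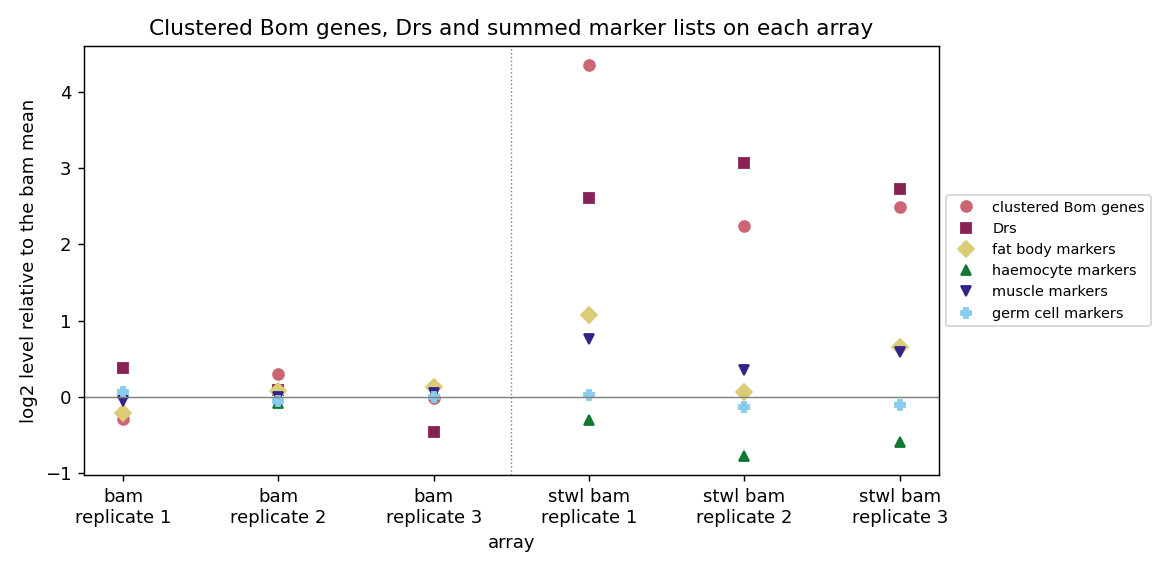
Level on each array, as log2 relative to the mean of the bam arrays, of the clustered Bom genes (mean of 6), of Drs and of the summed fat body, haemocyte, muscle and germ cell lists. Each sum weighs the brightest genes of its list most. On stwl bam replicates 1, 2 and 3 the clustered genes had mean log2 levels of 10.07, 7.96 and 8.22 and Drs of 10.69, 11.14 and 10.80.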

How the data were processed

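The authors deposited linear intensity values, 1 for each probe set of an array. Per the submitters' processing notes GCOS made them, with version and settings unstated in the sources used here. Trimmed means (2% to 98%) were 220.5 for bam replicate 1 and 250.0 for the other 5 arrays. The 18769 probe sets that are not controls were quantile normalized, and log2 was taken of the normalized intensity plus an offset of 7.9. The offset is the 25th percentile of all deposited intensities, controls included, and it understates folds of dim genes. Probe sets at or above the 40th percentile of their array on at least 3 of 6 arrays were kept (11477). All 9 measured members passed, 8 of them on the bam arrays alone. Gene names came from the platform annotation (13647 probe sets with 1 gene, 402 with several, 4720 with none), updated by gene number through RefSeq Release 6 (13544 matched). Genes were read only from probe sets paired with 1 gene, and a gene took the one with the highest mean.

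The genotype fit used limma 3.58.1 under R 4.3.3 (intensity trend, two-sided, Benjamini-Hochberg over kept probe sets, threshold 0.05), which was tested on simulated data. The members and gene lists were chosen with earlier results of these data known. Named are all members, passing Toll pathway and Toll-induced genes, up to 4 markers per list, and the genes most alike; any other named gene was picked with its values in view. Background is the 95th percentile of 44 control sets for bacterial and tag sequences; a gene under it throughout a group is given as "at least" a fold, taking per array the higher of background and own value. The 3 arrays per genotype limit the precision. Alternatives changed normalization, offset, filter, background floor, probe set rule, trend, weights, block, pooling and arrays.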

Additional observations from a re-analysis of the deposited data

How the results depend on the processing

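The median difference of the 9 members lay between 2.47 and 2.98, or at 3.32 for the clustered genes alone, a choice added after seeing the data. The count of Toll pathway genes that rose, 1 in the report, was 3 without normalization and with array weights, 2 with median centring, rescaling to one trimmed mean or an offset of 32, and 0 without the filter. It was 0 with median centring over all probe sets, an alternative added after seeing the data, and 0 to 2 when single arrays were left out. The count of other Toll-induced peptides that rose, 0 in the report, was 1 without normalization, with array weights and with that added centring, and 0 to 1 when single arrays were left out. The count of those that fell, 1 in the report, was 0 without the intensity trend, with array weights and with the test without pooling, and 0 to 1 when single arrays were left out. With the dimmer probe set the direction turned for Tl (0.76), cact (0.36), dl (-1.18), Mf (-0.30) and SKIP (0.41). It also turned for Sxl (1.02), and for sls and Hr39, of which no probe set passed. Without pooling 1 fat body and 2 muscle genes rose, 3 haemocyte genes fell and no gene of the germ cell list was called. Over all genes 974 rose and 1142 fell. These were 454 and 473 without pooling and 334 and 571 with the added centring. Leaving out bam replicate 1 gave 515 and 560, and leaving out bam replicate 3 gave 644 and 681. Leaving out stwl bam replicate 3 gave 598 and 708, and 748 genes fell when bam replicate 2 was omitted. The causes were not tested.

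Replicate numbers did not pair the arrays: the correlations of same-numbered deviations were -0.05, -0.03 and 0.00. With the replicate number as a block the members' median is 2.80 by construction, 1 Toll pathway gene rose and 3 fell, 0 other Toll-induced peptides rose and 1 fell, and over all genes 884 rose and 1014 fell.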

Other observations

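Among 50 kept probe sets that no gene was paired with and whose log2 levels had an SD of at least 1, 2 were as much like the mean of the Bom genes as the genes named for their likeness. Probe set 1622893_at had intensities of 64.5, 139 and 92.1 in bam and 2909, 622 and 679 in stwl bam, with an r of 0.999 over the 6 arrays and a log2 difference of 3.26. Probe set 1626345_at had 33.3, 57.6 and 37.3 in bam and 382, 172 and 230 in stwl bam, with an r of 0.989 and a difference of 2.22. Their genes are not named here. In both, stwl bam replicate 1 was the highest array, as in the clustered Bom genes.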
